A study of Homo sapiens with 4 samples.

Results

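Fatty acid metabolism genes were followed in CWR22Rv1 cells expressing shSiah2, a short hairpin RNA that targets the ubiquitin ligase gene SIAH2, and in CWR22Rv1 cells that carried the pLKO.1 vector as control. The members were 30 genes picked by name for fatty acid uptake, synthesis, activation, triglyceride storage, lipolysis and oxidation, of 13321 genes that have a named probe on the array. Every probe annotated to them was used. Probes were named for 26 of the 30 genes, 42 probes in all. ACSL5, DGAT2, EHHADH and PPARG were not analysed here.

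CWR22Rv1 is an established line of human prostate cancer, grown out of a CWR22 xenograft that came back after the host was castrated. The shSiah2 group and the pLKO.1 group had 2 Illumina bead arrays each, with biotinylated cRNA from total RNA. Both groups were kept in RPMI medium with serum, antibiotics and puromycin. The labels do not say how many Siah2 hairpins were used, whether the cells were pools or clones, or whether replicates were grown as separate cultures. The p-values therefore reflect the spread between the arrays at hand, and that spread may be technical. Each array measured bulk RNA, in which fewer cells of a type and less RNA per cell cannot be told apart.

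Cells obtain fatty acids by taking them up through membrane carriers such as CD36 and moving them on cytosolic fatty acid-binding proteins, or by making them from citrate through ACLY, ACACA and FASN. Desaturases and elongases then remodel the chains, and the transcription factor SREBP-1, product of SREBF1, switches on many genes of this branch. Fatty acids joined to coenzyme A are either stored as triglyceride in lipid droplets, from which lipases release them again, or carried into mitochondria by the CPT enzymes and oxidised. Prostate cancer cells are known for active fatty acid synthesis, which androgens stimulate.

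Between 19862 and 20632 of 47228 probes were detected per array, and the mean signal lay between 650 and 846. The number of arrays limits the precision. SIAH2 had deposited signals of 185.2 and 196.8 on the shSiah2 arrays, against 334.5 and 490.5 on the pLKO.1 arrays, and fell by 1.85 on the log2 scale (SE 0.251, limma adjusted p = 0.00117), or by 1.03 without background correction. All 8 luminal epithelial markers with a named probe (KRT8, KRT18, HOXB13, EPCAM, CDH1, TMPRSS2, FOLH1 and SLC45A3) were detected on all 4 arrays, with a summed signal of 18785.5 to 23308.5 on the shSiah2 arrays and 23654.1 to 31515.4 on the pLKO.1 arrays. Of these 8 genes, 4 fell on the probe that stands for the gene, with fold changes of -3.31 for SLC45A3, -1.58 for HOXB13, -1.14 for TMPRSS2 and -1.08 for FOLH1, and KRT8, KRT18, EPCAM and CDH1 did not pass, at -0.09 to 0.34. The 4 stromal markers with a named probe (COL1A1, COL1A2, DCN and LUM) did not move together. Their summed signal was 3704 to 3886 on the shSiah2 arrays and 1945 to 2755 on the pLKO.1 arrays. Most of it came from LUM, whose brighter probe had 2649.4 and 2698.7 on the shSiah2 arrays, against 1022.2 and 1537.7 on the pLKO.1 arrays. COL1A1 lay at 0.11 and did not pass, and COL1A2 was not tested. Both LUM probes rose, and of the 2 DCN probes the one detected on all 4 arrays fell by 1.98 while the other lay at 0.67 and did not pass. The part of these markers in the results was not tested.

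Values below are normalized log2 intensities, and a fold change is shSiah2 minus pLKO.1 on that scale. A gene is said to have risen or fallen where limma's p-value, adjusted by the Benjamini-Hochberg method over all 20750 tested probes, was under 0.05. The SE is limma's moderated value, which draws the spread of each probe towards that of all tested probes. Where a gene has several probes, its tested probe with the highest mean stands for it. Of the 26 genes with a tested probe, 6 fell, 0 rose and 20 did not pass. The 6 were CD36, FABP7, SREBF1, SCD, ELOVL6 and PLIN2, which makes 23.1% of the genes tested, whereas 4.51% of all named genes tested fell and 2.72% rose, 7.24% in all. Over single probes the share called was 6.19%. The members were chosen with earlier results of these data known, so these shares describe the list and are no test of it. Of the 26 genes, 11 were lower and 1 (GPAM) was higher at limma's unadjusted p under 0.05. Over all 20750 tested probes, 4383 had an unadjusted p under 0.05 in either direction. The median fold change was -0.45 over the 26 genes and 0.01 over all named genes tested. The shSiah2 arrays both lay below the pLKO.1 arrays for 16 of the 26 genes, 61.5%, against 26.0% of all named genes, and both lay above for 4, 15.4%, against 27.3%.

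A probe was tested if it was detected on at least 2 of the 4 arrays. CD36 thus passed this filter through the pLKO.1 arrays alone and LIPE through the shSiah2 arrays alone. FABP7 and MGLL were detected on 1 shSiah2 array and on 2 pLKO.1 arrays, so they would not have passed through the shSiah2 arrays alone. Among the 22 member genes with a probe detected on all 4 arrays, tested on their own set of probes, SREBF1, SCD, ELOVL6 and PLIN2 fell and GPAM rose, and the shares of all named genes in that set were 5.71% lower and 3.81% higher. Single arrays bear on the count of 6. It was 3 without pLKO.1 replicate 1 (CD36, FABP7 and SREBF1) and 4 without pLKO.1 replicate 2.

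**Figure D1:**
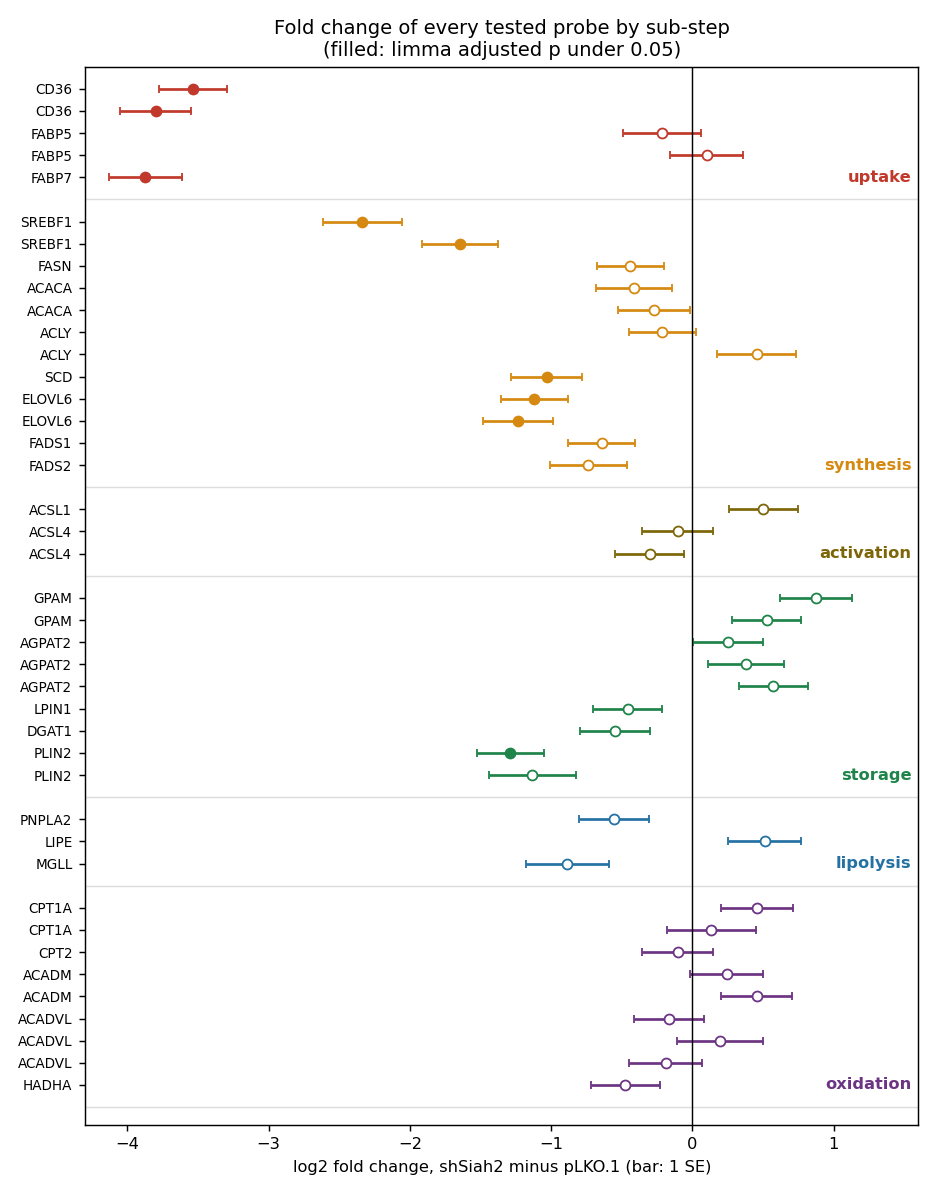
Log2 fold change (shSiah2 minus pLKO.1) of each of the 41 tested probes of the 26 genes, grouped by sub-step, with bars of 1 SE and filled points for probes past the threshold. The uptake probes of CD36 and FABP7 lie furthest to the left, between -3.87 and -3.54, and all oxidation probes lie between -0.48 and 0.45.

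The uptake genes held the largest falls. CD36 encodes the membrane glycoprotein that binds long-chain fatty acids and oxidised lipoproteins and helps them into the cell. On its brighter probe it had normalized intensities of 4.99 and 5.18 in shSiah2 cells, against 8.69 and 8.55 in pLKO.1 cells. On the second probe it had 4.64 and 4.805 in shSiah2 cells, against 8.34 and 8.71 in pLKO.1 cells. Neither probe was detected on a shSiah2 array, and the groups stood far apart on both. The fold change was -3.54 (SE 0.241, adjusted p = 1.19e-05) on the brighter probe and -3.80 (SE 0.251) on the other. As bounds against the detection limit on the background-corrected scale, CD36 was at least 8.93-fold and at least 8.33-fold lower in shSiah2 cells. These bounds hold for that correction alone, and with normexp at offset 50 the fold change of the brighter probe was -2.65. The deposited signals of the brighter probe, before any correction, were 134.7 and 143.3 in shSiah2 cells, against 452.5 and 558.9 in pLKO.1 cells, and without background correction its fold change was -1.78.

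Adipocytes, macrophages and capillary endothelium are known for high CD36. The 4 adipocyte markers with a named probe (LEP, CIDEC, CFD and LIPE, which is also a member) summed to signals of 1285 to 1500 on the shSiah2 arrays and 1325 to 1386 on the pLKO.1 arrays, with LEP and CFD detected on all 4 arrays. The 4 macrophage and monocyte markers (CD14, CD68, LYZ and MSR1) summed to 1919 to 2809 on the shSiah2 arrays and 1738 to 2264 on the pLKO.1 arrays, with CD68 and MSR1 detected on all 4. The 2 endothelial markers, KDR and TEK, summed to 273.9 to 286.2 on the shSiah2 arrays and 257.2 to 262.9 on the pLKO.1 arrays, and neither was detected on all 4. These sums are of signals with no background removed. The part of these markers in the CD36 values was not tested.

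FABP7 is a cytosolic carrier of long-chain and polyunsaturated fatty acids, best known from radial glia and the developing brain. It had intensities of 5.56 and 5.40 in shSiah2 cells, against 9.11 and 9.60 in pLKO.1 cells, and was detected on 1 shSiah2 array and on both pLKO.1 arrays. The shSiah2 values lie near the lowest values of detected probes, 5.45 and 5.48 on those arrays. FABP7 fell by 3.87 (SE 0.260, adjusted p = 1.19e-05), and without background correction it fell by 2.23.

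FABP5, the related epidermal fatty acid-binding protein gene, did not follow. Its brighter probe had 9.79 and 10.30 in shSiah2 cells, against 10.02 and 10.50 in pLKO.1 cells, and the second probe had 8.29 and 8.79 in shSiah2 cells, against 8.39 and 8.49 in pLKO.1 cells. The arrays of the groups overlapped on both probes, whose fold changes were -0.21 (SE 0.277, adjusted p = 0.727) and 0.10. The 95% interval of the brighter probe ran from -0.82 to 0.39, which does not reach the size of the change in CD36 or FABP7. FABP5 has near-identical pseudogene copies that probes may not separate.

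**Figure D2:**
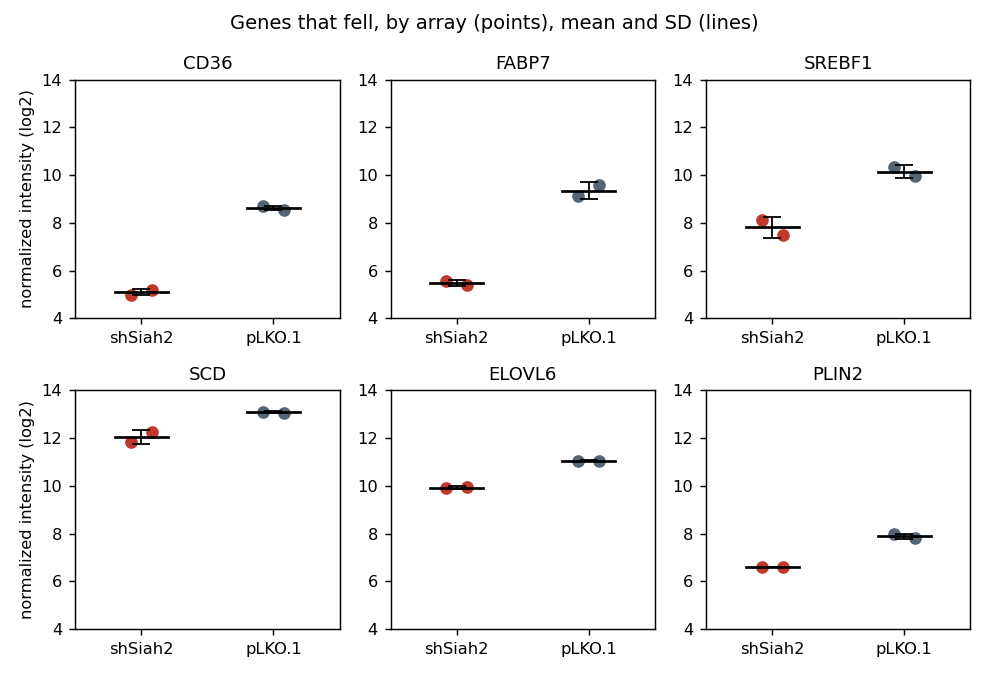
Normalized intensity (log2) of the 6 genes that fell, on the probe that stands for each gene, with 1 point per array, horizontal lines at the group means and bars of 1 SD (n = 2 per group). In each panel both shSiah2 points lie below both pLKO.1 points, with the widest gap for FABP7 and the narrowest for SCD.

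All 8 synthesis genes had a tested probe, and 3 of them fell, 0 rose and 5 did not pass. Their fold changes ran from -2.34 to -0.21 with a median of -0.69. Both shSiah2 arrays lay below both pLKO.1 arrays for all 8 on the probe that stands for the gene. The share of all named genes with arrays so placed was 26.0%. The sign was negative for all 8 with cyclic loess, with scaling to the 75th percentile and in the authors' value table too, but ACLY was positive when a gene's probes were averaged. SREBF1, the gene of the regulator SREBP-1, had 8.12 and 7.49 in shSiah2 cells, against 10.33 and 9.95 in pLKO.1 cells. Its second probe had 5.99 and 6.62 in shSiah2 cells, against 7.92 and 7.98 in pLKO.1 cells. Both probes showed groups that did not overlap, with a larger gap between the shSiah2 arrays than between the pLKO.1 arrays, and in opposite order. SREBF1 fell by 2.34 (SE 0.281, adjusted p = 0.000461) on the brighter probe and by 1.64 (SE 0.270, adjusted p = 0.0041) on the other.

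Genes that act on the finished chain came next. ELOVL6, the elongase that takes palmitate to stearate, had 9.89 and 9.97 in shSiah2 cells, against 11.06 and 11.04 in pLKO.1 cells, and fell by 1.12 (SE 0.237, adjusted p = 0.0177). Its second probe also fell, by 1.24 (adjusted p = 0.0134), with replicate values that differed by less than 0.01 in shSiah2 cells. SCD, the desaturase that turns stearate into oleate, had 11.84 and 12.27 in shSiah2 cells, against 13.11 and 13.06 in pLKO.1 cells, and fell by 1.03 (SE 0.253, adjusted p = 0.0347). The groups of both genes were separate by more than the gap between replicates. ELOVL6 lost its call when either of the pLKO.1 arrays was left out, at -1.11 and -1.13, and SCD passed in only 1 of the 4 fits that left out an array, the one without shSiah2 replicate 2, at -1.25.

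FADS1 and FADS2, the delta-5 and delta-6 desaturase genes of polyunsaturated fatty acid synthesis, had values in the same direction that did not pass. FADS1 had 9.84 and 9.93 in shSiah2 cells, against 10.48 and 10.57 in pLKO.1 cells, a fold change of -0.64 (SE 0.238, adjusted p = 0.144). FADS2 had 5.45 and 5.92 in shSiah2 cells, against 6.20 and 6.64 in pLKO.1 cells, a fold change of -0.74 (SE 0.271, adjusted p = 0.141), which was -0.27 without background correction. FADS1 did pass without background correction, at -0.58, and in the authors' value table, at -0.65.

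The 3 enzymes that build palmitate had smaller differences. FASN, the fatty acid synthase gene, had 13.10 and 13.12 in shSiah2 cells, against 13.53 and 13.57 in pLKO.1 cells. The replicates lay close together (SD 0.016 in shSiah2 cells and 0.027 in pLKO.1 cells) and the groups apart. At -0.44 (SE 0.237, adjusted p = 0.320) FASN did not pass, with a moderated SE set mostly by the spread of all tested probes. ACACA, which encodes the acetyl-CoA carboxylase that commits carbon to fatty acids, had 10.90 and 10.32 in shSiah2 cells, against 11.14 and 10.91 in pLKO.1 cells, a fold change of -0.41 (adjusted p = 0.425), with shSiah2 replicate 1 almost level with pLKO.1 replicate 2. Its value was -0.12 without shSiah2 replicate 2. ACLY, which splits citrate to acetyl-CoA, gave probes of opposite sign, at -0.21 with 11.62 and 11.70 in shSiah2 cells, against 11.90 and 11.84 in pLKO.1 cells, and at 0.45 with arrays that overlapped. The 95% intervals were -0.96 to 0.08 for FASN, -1.005 to 0.18 for ACACA and -0.73 to 0.30 for the brighter ACLY probe.

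Promoters are printed for the member genes that fell and have a single window in RefSeq's GRCh38.p14 promoter set. Whether these genes share regulation was not tested. Each runs from 250 bases before the annotated start to 50 bases from it on, read 5′ to 3′ on the gene's strand. Capitals mark CCAAT (the CCAAT box), GGGCGG (the GC box) and CACGTG (the E-box) on either strand. TCACNCCAC, the core of the sterol response element that SREBP proteins bind, was searched as well. The windows are chr17:17836937-17837236 (minus strand) for SREBF1, chr10:100346983-100347282 (plus) for SCD, chr4:110198566-110198865 (minus) for ELOVL6, chr9:19127443-19127742 (minus) for PLIN2 and chr6:122779466-122779765 (plus) for FABP7.
SREBF1: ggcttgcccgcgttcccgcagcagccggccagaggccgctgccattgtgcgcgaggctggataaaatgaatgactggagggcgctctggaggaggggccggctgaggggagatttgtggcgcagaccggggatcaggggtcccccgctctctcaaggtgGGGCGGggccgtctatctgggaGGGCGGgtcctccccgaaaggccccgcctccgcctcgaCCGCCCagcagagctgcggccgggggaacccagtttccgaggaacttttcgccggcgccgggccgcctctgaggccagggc
SCD: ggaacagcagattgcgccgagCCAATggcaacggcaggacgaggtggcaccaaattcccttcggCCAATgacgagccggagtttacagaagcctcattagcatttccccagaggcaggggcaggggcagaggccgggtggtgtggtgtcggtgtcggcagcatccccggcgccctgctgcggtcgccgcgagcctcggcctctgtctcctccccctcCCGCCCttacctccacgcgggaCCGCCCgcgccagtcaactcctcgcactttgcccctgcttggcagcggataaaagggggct
ELOVL6: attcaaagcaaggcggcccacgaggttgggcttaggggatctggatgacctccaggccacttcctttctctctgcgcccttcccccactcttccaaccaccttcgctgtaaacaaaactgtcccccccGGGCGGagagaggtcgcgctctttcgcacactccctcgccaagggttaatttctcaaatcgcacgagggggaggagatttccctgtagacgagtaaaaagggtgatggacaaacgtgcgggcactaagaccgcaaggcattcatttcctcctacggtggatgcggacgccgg
PLIN2: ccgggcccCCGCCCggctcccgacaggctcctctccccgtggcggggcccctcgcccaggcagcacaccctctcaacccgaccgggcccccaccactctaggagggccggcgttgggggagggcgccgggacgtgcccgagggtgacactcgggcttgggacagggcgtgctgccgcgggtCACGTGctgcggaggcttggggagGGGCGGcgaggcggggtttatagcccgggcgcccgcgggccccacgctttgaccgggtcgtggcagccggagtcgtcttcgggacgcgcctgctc
FABP7: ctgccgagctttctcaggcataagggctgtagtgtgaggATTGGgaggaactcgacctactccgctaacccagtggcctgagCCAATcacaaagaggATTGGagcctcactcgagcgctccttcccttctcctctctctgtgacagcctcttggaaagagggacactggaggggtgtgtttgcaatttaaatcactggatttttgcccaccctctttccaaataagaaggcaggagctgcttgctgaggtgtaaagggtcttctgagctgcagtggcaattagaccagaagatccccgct
SREBF1 has 3 GC boxes, 91, 69 and 31 bases before the start. SCD has CCAAT boxes 229 and 186 bases before it and GC boxes at 33 and 11, and ELOVL6 has a GC box at 122. PLIN2 has an E-box at 69 and GC boxes at 242 and 45, while FABP7 has 3 CCAAT boxes and no GC box. The motifs do not overlap in these windows. None of the 5 windows holds TCACNCCAC, and the letters say nothing of whether a factor binds there. Of all 35116 windows of 300 bases, 1.13% hold TCACNCCAC, 7.26% CACGTG, 34.6% CCAAT and 45.0% GGGCGG. Windows were given for 24 of the 30 genes, 47 in all, and TCACNCCAC lies in 2 of them, those of PNPLA2 and of 1 of the 5 starts of ACSL1. CD36 has 6 annotated starts, and its windows are not printed.

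Activation joins a fatty acid to coenzyme A, and neither of the 2 tested acyl-CoA synthetase genes passed limma's test, nor had an unadjusted p under 0.05. ACSL1, which feeds both storage and oxidation, had 8.48 and 8.24 in shSiah2 cells, against 7.80 and 7.92 in pLKO.1 cells, a fold change of 0.50 (SE 0.243, adjusted p = 0.265) with both shSiah2 arrays above. ACSL4, which prefers arachidonate, lay at -0.11 on its brighter probe, where the arrays overlapped, and at -0.30 on the other.

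Storage genes differed among themselves. Of 5 tested, PLIN2 fell, 0 rose and 4 did not pass, with a median of -0.46. PLIN2 encodes the protein that coats lipid droplets in most cell types. It had 6.58 and 6.61 in shSiah2 cells, against 7.96 and 7.81 in pLKO.1 cells, and fell by 1.29 (SE 0.239, adjusted p = 0.00859). The second, dimmer probe had 4.64 and 5.52 in shSiah2 cells, against 5.997 and 6.43 in pLKO.1 cells, and at -1.13 (adjusted p = 0.054) it did not pass. Groups stood apart on both, with wide replicates on the dimmer probe alone. PLIN2 lay at -1.21 without pLKO.1 replicate 1, where it did not pass, and at -0.71 without background correction, where it did.

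None of the 4 tested enzymes of triglyceride assembly passed. GPAM, the mitochondrial acyltransferase that starts glycerolipid synthesis, had 8.50 and 8.31 in shSiah2 cells, against 7.31 and 7.75 in pLKO.1 cells, the highest fold change of the 26 genes at 0.88 (SE 0.257, adjusted p = 0.0688). Its second probe lay at 0.52, and both shSiah2 arrays lay above both pLKO.1 arrays on each. GPAM did pass with normexp at offset 50 (0.77), without background correction (0.58), in the authors' value table (0.71) and in 3 other fits. AGPAT2, which adds the second acyl chain, had 3 probes between 0.25 and 0.57, none of which passed. LPIN1, the phosphatidate phosphatase of the next step, had 9.05 and 8.82 in shSiah2 cells, against 9.28 and 9.50 in pLKO.1 cells, a fold change of -0.46 (adjusted p = 0.315). DGAT1, which adds the last acyl chain, had 8.72 and 8.49 in shSiah2 cells, against 9.27 and 9.04 in pLKO.1 cells, a fold change of -0.55 (adjusted p = 0.228). Among related listed genes that did not pass, GPAT4 and AGPAT5 both lay at -0.17, LPIN2 at -0.11, AGPAT1 at 0.20 and GPAT2 at 0.24. Each of these values was smaller than its SE (0.239 to 0.280), so they show no direction.

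None of the 3 lipolysis genes passed limma's test after adjustment, and 2 of them (PNPLA2 and MGLL) were lower at an unadjusted p under 0.05. PNPLA2, the triglyceride lipase gene, had 8.35 and 8.52 in shSiah2 cells, against 9.16 and 8.82 in pLKO.1 cells, a fold change of -0.56 (SE 0.249, adjusted p = 0.227). MGLL, which cleaves monoglycerides, had 5.16 and 5.96 in shSiah2 cells, against 6.58 and 6.31 in pLKO.1 cells, a fold change of -0.89 (SE 0.294, adjusted p = 0.104). It was detected on 1 of the shSiah2 arrays, and without shSiah2 replicate 2 it passed at -1.28. LIPE, the hormone-sensitive lipase gene, had 5.97 and 5.501 in shSiah2 cells, against 5.21 and 5.23 in pLKO.1 cells, and was detected on the shSiah2 arrays alone. Its fold change of 0.51 (95% interval -0.05 to 1.07, adjusted p = 0.280) did not pass, and was 0.17 without background correction. MGLL lay at -0.32 in that setting.

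Oxidation genes held no call. Of 5 tested, none rose or fell by limma, with an unadjusted p above 0.05 for each of them, fold changes from -0.48 to 0.45, a median of -0.10 and adjusted p between 0.293 and 0.863. CPT1A, the carnitine palmitoyltransferase that controls entry into mitochondria, had 7.63 and 7.30 in shSiah2 cells, against 6.85 and 7.17 in pLKO.1 cells, a fold change of 0.45 (SE 0.255). A dimmer CPT1A probe lay at 0.13 with arrays that overlapped, and another was detected on only 1 array and was not tested. HADHA, the alpha subunit of the mitochondrial trifunctional protein, had 8.30 and 8.01 in shSiah2 cells, against 8.63 and 8.63 in pLKO.1 cells, a fold change of -0.48 (SE 0.244). CPT2, the inner-membrane partner of CPT1A, lay at -0.10, the medium-chain dehydrogenase gene ACADM at 0.24 and the very-long-chain dehydrogenase gene ACADVL at -0.17, and the arrays overlapped for these 3. Taken over the 5 genes, the 95% intervals together reached from -1.01 to 1.01, with the upper end from CPT1A (-0.10 to 1.01) and the lower end from HADHA (-1.01 to 0.06). The interval was -0.65 to 0.44 for CPT2, -0.32 to 0.81 for ACADM and -0.71 to 0.38 for ACADVL.

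**Figure D3:**
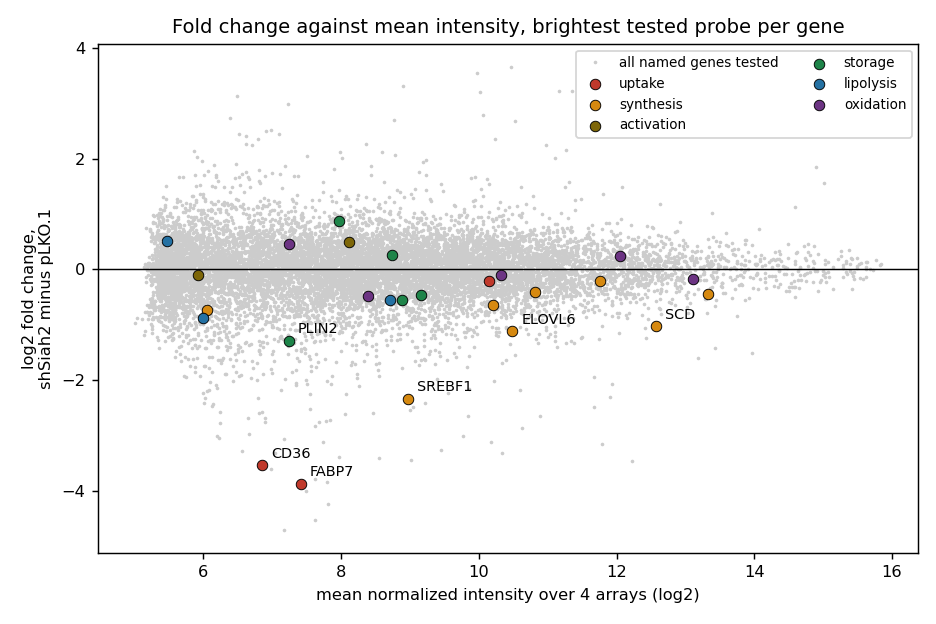
Log2 fold change against mean normalized intensity (log2) for the brightest tested probe of each of the 11894 named genes (grey) and of the 26 member genes (coloured by sub-step, names for the 6 that fell). CD36, FABP7 and SREBF1 lie at the lower edge of the grey cloud, while the oxidation genes lie within it between -0.48 and 0.45.

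A further 142 genes of the same pathways and their regulators were listed, of which 104 were tested. Of these, 8 fell, 4 rose and 92 did not pass, which is 7.69% lower and 3.85% higher, against 4.51% and 2.72% of all named genes. The median fold change was -0.18. Calls numbered 6 when pLKO.1 replicate 1 was left out and 8 when shSiah2 replicate 2 was, and reached 25 with normexp at offset 50.

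Among uptake genes LPL, the lipoprotein lipase that frees fatty acids from circulating triglyceride, had 5.30 and 5.29 in shSiah2 cells, against 6.76 and 6.99 in pLKO.1 cells, and was detected on the pLKO.1 arrays alone. It fell by 1.58 (adjusted p = 0.00251), at least 2.67-fold on the background-corrected scale, but lay at -0.60 without background correction, at -0.89 in the authors' value table and at -1.05 with normexp at offset 50. SLC27A3, of the fatty acid transport protein family, had 10.68 and 10.23 in shSiah2 cells, against 11.97 and 11.54 in pLKO.1 cells, and fell by 1.30 (adjusted p = 0.0161). With the members, 4 of 13 tested uptake genes fell (CD36, FABP7, LPL and SLC27A3), which is 30.8%, against 4.51% of all named genes. CD36 and LPL passed the filter through the pLKO.1 arrays alone, and FABP7 was detected on only 1 shSiah2 array. The count therefore does not describe the group. Among the 8 uptake genes with a probe detected on all 4 arrays, fitted on that set, SLC27A3, CAV1 and DBI fell and 0 rose. In that set 5.71% of all named genes were lower and 3.81% higher. SLC27A3 did not pass without pLKO.1 replicate 1 or shSiah2 replicate 2, at -1.08 and -1.07, nor without the filter on dim probes (adjusted p = 0.0615).

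Among synthesis genes ELOVL4, the elongase of very long chains, fell by 1.41 (adjusted p = 0.00599), with 8.86 and 9.16 in shSiah2 cells, against 10.44 and 10.40 in pLKO.1 cells. ACACB, the mitochondria-bound acetyl-CoA carboxylase whose product inhibits CPT1, fell by 1.23 (adjusted p = 0.0165), with 6.72 and 6.28 in shSiah2 cells, against 7.81 and 7.64 in pLKO.1 cells. It did not pass without pLKO.1 replicate 1 or shSiah2 replicate 2, nor without the filter on dim probes (adjusted p = 0.0518), and it lay at -0.65 without background correction. In all, 5 of 29 tested synthesis genes fell and 0 rose, which is 17.2% lower, against 4.51% lower and 2.72% higher among all named genes. The 29 had a median fold change of -0.33, with 21 negative and 8 positive. Both shSiah2 arrays lay below both pLKO.1 arrays for 55.2% and above for 17.2%, against 26.0% and 27.3% of all named genes. For the 21 tested synthesis genes that are not members, the median was -0.18. ACSF2, an acyl-CoA synthetase gene, fell by 1.81 (adjusted p = 0.00217), with 6.19 and 5.96 in shSiah2 cells, against 8.17 and 7.59 in pLKO.1 cells. It was the only one of 9 tested genes on the activation list to pass, 11.1% lower, against 4.51% of all named genes. That list also holds acyl-CoA thioesterase genes, whose products remove coenzyme A again. Without background correction ACSF2 lay at -0.92.

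Of 18 tested storage genes, PLIN2 and CIDEB fell and GPAT3 rose, the last 2 each past the filter through its brighter group alone. The shares were 11.1% lower and 5.56% higher, against 4.51% and 2.72% of all named genes. GPAT3, a glycerol-3-phosphate acyltransferase of the endoplasmic reticulum that acts at the same step as GPAM, had 6.64 and 6.64 in shSiah2 cells, against 4.997 and 5.28 in pLKO.1 cells, and was detected on the shSiah2 arrays alone. It rose by 1.497 (adjusted p = 0.00391), at least 2.27-fold on the background-corrected scale, but lay at 0.54 without background correction, at 0.85 in the authors' value table and at 0.95 with normexp at offset 50. The lipid droplet gene CIDEB fell by 1.20 (adjusted p = 0.0259), at least 1.72-fold on the background-corrected scale, and was detected on the pLKO.1 arrays alone. It did not pass without pLKO.1 replicate 1 or shSiah2 replicate 2, nor without the filter on dim probes (adjusted p = 0.0888), nor without background correction, where it lay at -0.44. It lay at -0.72 both with normexp at offset 50 and in the authors' value table. Of 8 tested lipolysis genes 0 passed limma's test, and PNPLA2 and MGLL were the 2 with an unadjusted p under 0.05. Among probes detected on all 4 arrays, fitted on that set, 6 of 28 synthesis genes fell (ACACB, ELOVL4, ELOVL6, INSIG1, SCD and SREBF1) and 0 rose. Of 8 genes on the activation list ACOT1 and ACSF2 fell, and of 15 storage genes PLIN2 fell and GPAM rose. None of 6 lipolysis genes passed there. In that set 5.71% of all named genes were lower and 3.81% higher.

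Of 40 tested oxidation genes, 2 rose, 2 fell and 36 did not pass, shares of 5% in each direction, against 2.72% and 4.51% of all named genes. Their median fold change was -0.30, with 28 negative and 12 positive. Both shSiah2 arrays lay below both pLKO.1 arrays for 47.5% and above for 17.5%, against 26.0% and 27.3% of all named genes. At limma's unadjusted p under 0.05, 11 were lower and 4 higher, while 4383 of all 20750 tested probes had such a p in either direction. Among the 40 with a probe detected on all 4 arrays, fitted on that set, 4 genes fell (ACAA2, AMACR, CPT1C and PCCB) and 2 rose (ACADL and CPT1B). In that set 5.71% of all named genes were lower and 3.81% higher. CPT1B, the muscle-type form of CPT1, rose by 1.15 (adjusted p = 0.0268), with 7.53 and 7.82 in shSiah2 cells, against 6.27 and 6.78 in pLKO.1 cells. CPT1C, the form best known from neurons, fell by 1.63 (adjusted p = 0.00265), with 7.05 and 6.85 in shSiah2 cells, against 8.41 and 8.74 in pLKO.1 cells. The 3 CPT1 genes thus had different values, with CPT1A not past the threshold between them. ACADL, the long-chain acyl-CoA dehydrogenase gene, rose by 1.003 (adjusted p = 0.0349), and ACAA2, the last enzyme of the mitochondrial cycle, fell by 1.20 (adjusted p = 0.0130). ACADL passed in none of the 4 fits that left out an array, at 0.85 to 1.16, and neither CPT1B, at 0.90, nor ACAA2, at -1.18, passed without pLKO.1 replicate 1. CPT1B lay at 1.01 without shSiah2 replicate 2 and did not pass there either. Neither ACADL (adjusted p = 0.0696) nor CPT1B (adjusted p = 0.0799) passed without the filter on dim probes. Without background correction CPT1C lay at -1.04, ACAA2 at -0.59, CPT1B at 0.61 and ACADL at 0.66.

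PDK4 encodes a kinase that shuts pyruvate dehydrogenase and so turns cells from glucose to fatty acid oxidation. Of 13 tested regulators PDK4 alone passed, which is 7.69% higher, against 2.72% of all named genes. It had 12.44 and 13.11 in shSiah2 cells, against 9.65 and 9.44 in pLKO.1 cells, and rose by 3.22 (SE 0.277, adjusted p = 4.58e-05).

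**Figure D4:**
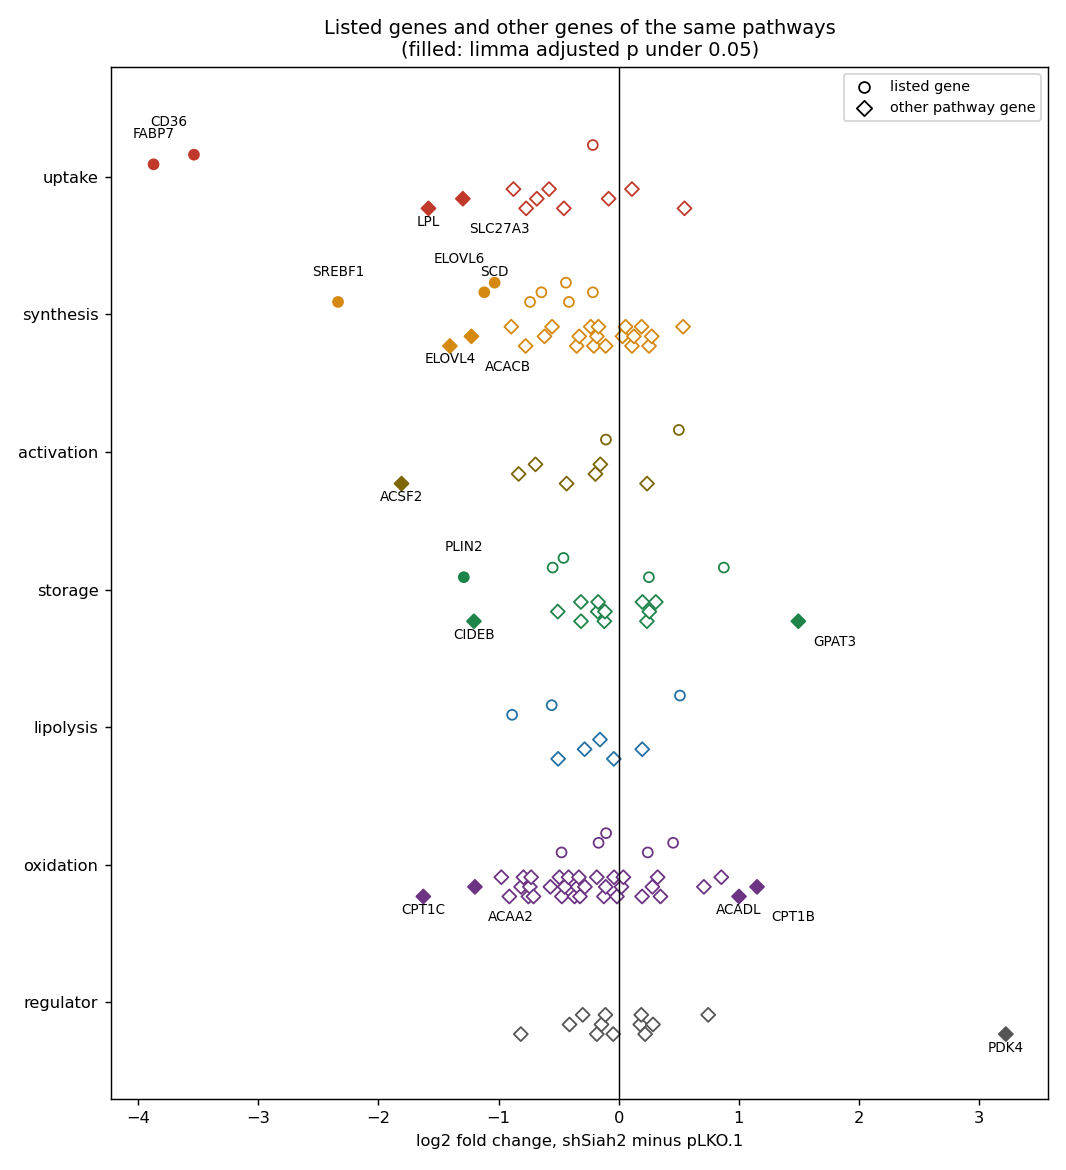
Log2 fold change of the 26 member genes (circles) and of 104 other genes of the same pathways (diamonds) by sub-step, filled where past the threshold and then named. Filled points lie on the left alone for uptake, synthesis and activation, on both sides for storage (PLIN2 and CIDEB against GPAT3) and oxidation, and PDK4 stands alone on the right among regulators.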

How the data were processed

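The members, lists and tests were chosen with earlier results of these data known. The authors deposited intensity values on a linear scale for 47228 probes, with no background subtracted as far as the values show, and a detection p-value per probe and array, per the file headers. The deposited value table of 24733 probes is on a log2 scale, and its normalization is not given in the sources used here. Its column medians were 7.59 and 7.62 for the shSiah2 arrays and 7.60 and 7.61 for the pLKO.1 arrays. It served as an alternative. The intensities were corrected by normexp from the detection p-values (offset 16), quantile normalized and log2 transformed with limma 3.58.1 in R 4.3.3. Probes detected (detection p under 0.05) on 2 or more arrays were fitted with lmFit and eBayes, two-sided, without covariate. Fits were tested on simulated data. Bounds set the brighter group's mean against, per array of the other group, the lowest detected value, or the probe's own where that was higher.

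Names came from the platform annotation, updated by Entrez ID to RefSeq symbols: 18007 probes had 1 symbol, 4 had several and 29217 were unnamed here. All 30 members were described by every named probe, and other pathway genes were named if called. Alternatives changed the background correction, normalization, source of values, filter, probe summary, prior, replicate block and set of arrays.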

Additional observations from a re-analysis of the deposited data

How the results depend on the processing

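Across 14 alternatives, CD36, FABP7 and SREBF1 stayed past the threshold in every fit that tested them, and the stricter filter dropped CD36 and FABP7. Of 360 fits of single member genes, 338 kept their side of the threshold and their sign, 7 lost a call, 9 gained one and 6 turned sign. Those that turned were uncalled: FABP5 (-0.47 to 0.0388), ACSL4 (-0.30 to 0.0926), CPT2 (-0.28 to 0.0715) and ACADVL (-0.34 to 0.0037) when arrays were left out, and ACLY at 0.12 when a gene's probes were averaged. Leaving out each array gave 3 to 7 called member genes, 6 to 17 called pathway genes and 520 to 1329 called probes, the lowest each time without pLKO.1 replicate 1, and the cause was not tested. Without a filter on dim probes, which tests more probes, 640 probes and 7 pathway genes were called, and SCD, SLC27A3, ACACB, CIDEB, ACADL and CPT1B lost their calls at the same fold changes. Pathway calls numbered 19 with uncorrected intensities, 25 with normexp at offset 50 and 24 both in the authors' value table and with an intensity trend and robust prior. The uptake median was -1.78 with uncorrected intensities, -2.65 at offset 50, -2.39 in the authors' value table and -0.21 with the stricter filter, where FABP5 alone remained. Without background correction the synthesis median was -0.51 and the lipolysis median -0.32. With arrays left out the uptake median was -3.63 to -3.44, synthesis -0.83 to -0.56, lipolysis -0.73 to -0.39, storage -0.57 to -0.35, activation 0.04 to 0.36 and oxidation -0.26 to 0.03.

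With the replicate number as a block, 1815 probes, 7 member genes and 16 pathway genes were called, and GPAM passed (adjusted p = 0.04996). The labels do not say whether same-numbered arrays share a culture or day. Their deviations from the group means correlated at 0.09 over all tested probes, which does not settle it, and the fit without the block was kept. No setting moved the median of all probes by over 0.1. Dim probes (CD36, FABP7, FADS2, LIPE and MGLL in shSiah2 or pLKO.1 cells) limit the size of their fold changes.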
